A study of Mus musculus with 4 samples.

Results

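The genes described here are 39 components of nutrient signalling through the kinases mTOR, AMPK and PI3K. They were selected by symbol from a list of activators and inhibitors of mTOR complex 1, AMPK subunits and the PI3K arm. The list was chosen with earlier results of these data known. All 39 had a value with status OK in each library, out of 23046 such symbols in all. RNA was sequenced from isolated pancreatic islets of C57BL/6 mice in 4 groups: KR mutant mice refed for 6 h after a fast, WT mice refed in the same way, fasted KR mutant mice and fasted WT mice. KR mice carry a knock-in allele of the transcription factor FoxO1, with arginine in place of lysines that can be acetylated, as known from the study; a transcript level does not show this substitution. The labels give a fast of 48 h in the sample titles but 24 h in the extraction protocol. Islets of 3 mice per genotype were pooled before RNA isolation, and each group holds 1 library, so no group has a biological replicate. Values are FPKM, fragments scaled to transcript length and to sequencing depth.

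mTOR complex 1 is a growth-promoting kinase complex that is active at the lysosome when amino acids and insulin are plentiful. Amino acids reach it through the Rag GTPases, insulin through PI3K, the TSC proteins and the GTPase Rheb, while AMPK, the kinase that senses low energy, restrains it. In beta cells these kinases are known for coupling nutrient supply to cell mass, insulin synthesis and insulin secretion.

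The promoters of the Rag GTPases and of the folliculin partners Fnip1 and Fnip2 are shown because members of these families stood apart from their partners between feeding states. Each line holds the 300 bases from 250 before to 50 after the start site, from RefSeq on build GRCm38.p6, read 5′ to 3′ on the gene's strand. The windows are chr4:86575423-86575722 (+) for Rraga, chrX:153139708-153140007 (+) for Rragb, chr4:123917183-123917482 (+) for Rragc, chr4:32982748-32983047 (+) for Rragd, chr11:54437929-54438228 (+) for Fnip1 and chr3:79567630-79567929 (-) for Fnip2. Capitals mark the E-box CACGTG, the letters that factors such as Tfeb and Tfe3 can bind.
Rraga: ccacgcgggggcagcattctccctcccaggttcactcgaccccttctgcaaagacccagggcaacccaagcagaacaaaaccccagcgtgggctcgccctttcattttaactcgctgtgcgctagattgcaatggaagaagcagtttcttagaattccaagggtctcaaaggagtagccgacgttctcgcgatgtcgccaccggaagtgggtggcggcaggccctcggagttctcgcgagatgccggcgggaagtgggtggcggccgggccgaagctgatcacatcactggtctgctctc
Rragb: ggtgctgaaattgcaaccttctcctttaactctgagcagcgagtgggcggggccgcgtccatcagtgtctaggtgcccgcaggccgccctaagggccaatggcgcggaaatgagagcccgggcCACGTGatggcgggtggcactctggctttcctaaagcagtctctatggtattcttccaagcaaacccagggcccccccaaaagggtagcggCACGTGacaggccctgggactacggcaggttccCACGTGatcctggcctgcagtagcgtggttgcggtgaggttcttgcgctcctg
Rragc: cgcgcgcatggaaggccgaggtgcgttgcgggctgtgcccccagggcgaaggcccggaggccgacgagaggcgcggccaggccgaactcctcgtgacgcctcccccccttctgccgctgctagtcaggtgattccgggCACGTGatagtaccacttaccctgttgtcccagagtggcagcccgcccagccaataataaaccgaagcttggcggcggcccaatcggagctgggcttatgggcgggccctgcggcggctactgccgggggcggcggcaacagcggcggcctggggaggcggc
Rragd: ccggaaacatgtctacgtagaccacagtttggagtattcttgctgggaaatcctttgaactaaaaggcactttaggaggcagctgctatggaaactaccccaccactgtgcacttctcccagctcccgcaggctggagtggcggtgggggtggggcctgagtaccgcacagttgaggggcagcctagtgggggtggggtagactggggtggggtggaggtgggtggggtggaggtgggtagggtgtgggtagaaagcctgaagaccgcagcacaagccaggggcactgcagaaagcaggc
Fnip1: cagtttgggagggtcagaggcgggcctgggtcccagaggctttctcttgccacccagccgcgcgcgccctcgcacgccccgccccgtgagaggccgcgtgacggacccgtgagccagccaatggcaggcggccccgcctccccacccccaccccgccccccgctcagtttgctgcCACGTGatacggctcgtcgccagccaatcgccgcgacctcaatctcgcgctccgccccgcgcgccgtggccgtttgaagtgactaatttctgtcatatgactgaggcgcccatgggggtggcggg
Fnip2: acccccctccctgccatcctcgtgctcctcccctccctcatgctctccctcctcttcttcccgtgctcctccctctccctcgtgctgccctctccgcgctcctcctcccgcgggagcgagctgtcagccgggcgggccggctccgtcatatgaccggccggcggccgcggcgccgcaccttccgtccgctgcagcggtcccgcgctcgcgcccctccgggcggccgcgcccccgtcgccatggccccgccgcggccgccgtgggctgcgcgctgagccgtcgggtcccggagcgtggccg
The E-box letters, which read the same on both strands, stood in the promoters of 4 of the 36 members matched to RefSeq, or 11.1%, against 8.09% of 27025 genes with a promoter. These 4 were Rragc, with the motif starting 112 bases before the start site, Fnip1, at 75 bases, Rheb, at 96 bases, and Rragb, which held the letters 3 times, at 127, 36 and 3 bases. The extended form TCACGTGA, which contains the E-box, was in none of the 36, against 1.12% of genes. The FoxO element GTAAACA, searched on both strands, was in 1 member, Stk11, or 2.78%, against 4.05%. The core of the ATF4 element, TGATGCAA, and the palindromic glucocorticoid response element were in 0 of the 36 on either strand, against 1.03% and 0.537% of genes. A match describes these letters in this window and nothing more.

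Levels spanned a wide range. Per length, the most abundant member was Rraga, at 131 FPKM in refed KR, 134 in refed WT, 94.4 in fasted KR and 98.5 in fasted WT islets. Rragc, Rheb, Stk11, Rragd, Prkag1, Flcn, Rragb, Prkaa1 and Akt1s1 followed by mean level, each with at least 31.8 FPKM in every library. The least abundant was Inpp4b, a phosphoinositide phosphatase gene, at 0.351 FPKM in refed KR, 0.329 in refed WT, 0.686 in fasted KR and 0.518 in fasted WT islets. Its mean lay under the minimum of 1 FPKM, so it was the 1 member not tested. Rps6ka1, Tfeb, Pik3cb and Prkaa2 were the next lowest, between 1.66 and 4.02 FPKM.

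**Figure D1:**
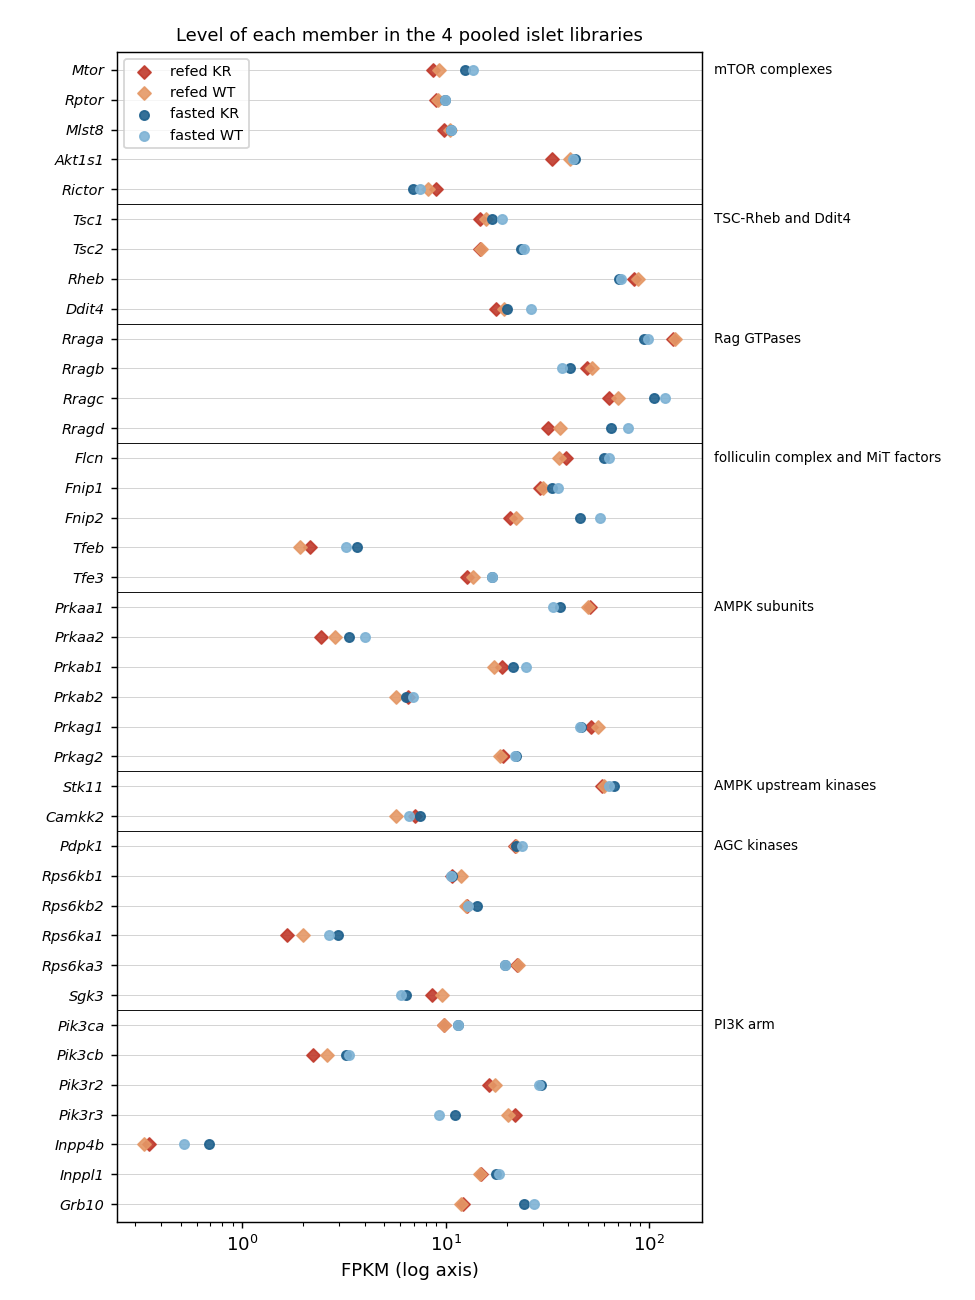
FPKM (log axis) of each of the 39 members in the 4 libraries, 1 point per library, grouped by role. Diamonds are refed and circles fasted islets; they lie apart for genes such as Rragd, Fnip2, Grb10 and Pik3r3, while KR and WT points of 1 feeding state lie close together.

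Many of the members differed between refed and fasted islets. Because the list was chosen with earlier results of these data known, the shares here and below describe these genes and do not test the pathway. Refed and fasted libraries were compared in 1 additive model of feeding state and genotype, fitted with limma to log2(FPKM + 1) of all 11953 genes with a mean of at least 1 FPKM, and a gene was called at a p under 0.05 after Benjamini-Hochberg adjustment over all of them. In refed islets 20 of the 38 tested members fell, 8 rose and 10 did not pass. The members called came to 73.7%, against 56.9% of all genes tested. By direction, 52.6% of members fell, against 29.2% of all genes, and 21.1% rose, against 27.7%. The median log2 change was -0.21 over the members and -0.01 over all genes. The limma p-values borrow most of their error from other genes, since only 1 residual degree of freedom is left in these pooled libraries. That degree of freedom is the difference between the refeeding changes of KR and WT islets, counted as error. The p-values thus measure no spread between replicate libraries or between mice. With no filter on low values 0 of 38 members and 0 of 23046 genes passed limma, and 20 members had an unadjusted p under 0.05. The filter does not alter the fitted change of a member, so the direction could not differ there.

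The refed libraries were also the shallower ones, at 0.418 (KR) and 0.683 (WT) of the depth of fasted WT, against 1.01 in fasted KR, so depth and feeding state cannot be told apart. Fewer cells of a type and less RNA per cell cannot be told apart in pooled islets. Of 11 endocrine markers 10 were tested, 5 rose and 0 fell. Ins2 had 201043 FPKM in refed KR and 121397 in refed WT, against 122864 in fasted WT islets, and was left out because it was listed at 0 in fasted KR with a status other than OK. Without it the endocrine list summed to 121764 FPKM in refed KR, 99035 in refed WT, 92456 in fasted KR and 73481 in fasted WT islets. Some markers of other cells differed with feeding too. The counts of all marker lists stand against 56.9% of all genes called, 27.7% higher and 29.2% lower, and nothing particular to a list is read from them. Of 8 endothelial markers 5 were tested, 3 fell and 1 rose, and the list summed to 14.9 to 16.7 FPKM in refed and 18.0 to 24.5 in fasted libraries. Of 8 stellate cell and fibroblast markers 7 were tested, 5 fell and 1 rose, with sums of 26.4 to 34.3 FPKM in refed and 39.9 to 40.9 in fasted libraries. Of 11 immune markers 9 were tested, 3 fell and 0 rose, with sums of 196 to 198 FPKM in refed and 245 to 272 in fasted libraries. Of 8 duct markers 6 were tested, 4 rose and 0 fell, with sums of 840.5 to 968 FPKM in refed and 718 to 744 in fasted libraries. Of 13 acinar markers 2 were tested and both rose, with sums of 55.7 to 67.3 FPKM in refed and 39.4 to 45.8 in fasted libraries and Ptf1a at 0 throughout. Of 6 adipocyte markers 2 were tested and 1 fell, with sums of 141 to 182 FPKM in refed and 134 to 178 in fasted libraries, and Adipoq, Plin1, Cfd and Retn were at 0 in every library. Most of the duct sum came from Krt7, of the immune sum from Lyz2 and of the adipocyte sum from Lpl. Over the 4 libraries these stood at 413 to 521, 119 to 170 and 132 to 178 FPKM. The duct marker Sox9 stood at 0.128 to 0.194 FPKM. The largest endothelial value was that of Esam, the 1 that rose. A sum thus follows few genes and does not measure the share of a cell type. The part of these cells, and of depth, in the results below was not tested.

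Of the 5 genes of the mTOR complexes, the kinase gene itself fell and 4 did not pass. Mtor, on chromosome 4 at 147822691 to 147931794 of build mm9, stood at 8.68 FPKM in refed KR and 9.32 in refed WT, against 12.5 in fasted KR and 13.6 in fasted WT islets. Both refed values lay below both fasted ones, and the fitted change was -0.49 ± 0.07 (SE; limma adjusted p = 0.000696). All such changes are differences of log2(FPKM + 1), which understate the change of low genes. Rptor, which encodes the raptor scaffold of complex 1, stood between 9.01 and 9.88 FPKM over the 4 libraries and Mlst8, a subunit gene of both complexes, between 9.83 and 10.7. Neither passed, at changes of -0.11 ± 0.08 and -0.06 ± 0.08. Akt1s1, which encodes the inhibitor PRAS40, was at 33.2 FPKM in refed KR, against 40.8 in refed WT, 43.0 in fasted KR and 42.2 in fasted WT islets. The refed KR library was thus the low one, and the shared change of -0.21 ± 0.08 did not pass (limma adjusted p = 0.0576). It passed among genes with a mean of at least 5 FPKM (limma adjusted p = 0.0414) and with limma-voom (adjusted p = 0.0197). Rictor, the scaffold gene of complex 2, stood at 8.92 FPKM in refed KR and 8.17 in refed WT, against 6.91 in fasted KR and 7.505 in fasted WT islets. Both refed values lay above both fasted ones, but the deposited bounds of the WT pair, which cover counting error only, overlapped. The change of 0.22 ± 0.09 did not pass (limma adjusted p = 0.0629). It did after upper-quartile rescaling and with limma-voom.

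Of the members at the switch that turns complex 1 on, the inhibitor genes Tsc1, Tsc2 and Ddit4 fell and the activator gene Rheb rose, while Tbc1d7, a further TSC subunit gene outside the 39, rose by 0.56. Tsc2, which encodes the GTPase-activating subunit that shuts off Rheb, stood at 14.7 FPKM in refed KR and 15.0 in refed WT, against 23.4 in fasted KR and 24.2 in fasted WT islets. Its change was -0.65 ± 0.07 (limma adjusted p = 9.9e-05), and refed and fasted values did not overlap. Tsc1, its stabilising partner, stood at 14.7 FPKM in refed KR and 15.7 in refed WT, against 16.9 in fasted KR and 19.0 in fasted WT islets, and fell by 0.23 ± 0.07 (limma adjusted p = 0.0223). Rheb, the direct activator of complex 1, stood at 84.2 FPKM in refed KR and 88.2 in refed WT, against 71.0 in fasted KR and 72.5 in fasted WT islets, a rise of 0.26 ± 0.06 (limma adjusted p = 0.00462). Ddit4 encodes REDD1, a stress-induced inhibitor of complex 1. It was at 17.6 FPKM in refed KR and 19.4 in refed WT, against 19.9 in fasted KR and 26.3 in fasted WT islets. Fasted WT was the high library, the deposited bounds of refed and fasted KR overlapped, and the shared change was -0.30 ± 0.08 (limma adjusted p = 0.012).

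The Rag GTPases, which work as dimers of an A or B with a C or D protein, moved in opposite directions. Rraga rose by 0.45 ± 0.06 (limma adjusted p = 0.000212) and Rragb by 0.37 ± 0.07 (limma adjusted p = 0.00238). Rragb stood at 49.2 FPKM in refed KR and 52.2 in refed WT, against 40.9 in fasted KR and 37.1 in fasted WT islets. Rragc, on chromosome 4 at 123594676 to 123614240 of mm9, stood at 63.1 FPKM in refed KR and 70.4 in refed WT, against 105 in fasted KR and 119 in fasted WT islets. Rragd, on chromosome 4 at 33069973 to 33109155, stood at 31.8 FPKM in refed KR and 36.3 in refed WT, against 64.5 in fasted KR and 78.2 in fasted WT islets. Refed and fasted values of these genes did not overlap, and the falls were 0.74 ± 0.06 for Rragc (limma adjusted p = 2.41e-05) and 1.04 ± 0.06 for Rragd (limma adjusted p = 7.47e-06). The summed FPKM of Rragc and Rragd was 0.528 of that of Rraga and Rragb in refed KR and 0.572 in refed WT, against 1.25 in fasted KR and 1.45 in fasted WT islets. In fasted islets the C and D transcripts were therefore the more abundant side of the dimer, and in refed islets the less abundant one. Rraga and Rragb shared 0% and 0.222% of their 50-base windows with transcripts of other genes.

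All 5 members of the folliculin complex and its transcription factors fell. Folliculin (Flcn) with Fnip1 or Fnip2 acts on Rag C and D and so controls Tfeb and Tfe3, factors of lysosome genes, and Flcn, Fnip2, Rragc and Rragd are themselves known as targets of these factors. Fnip2, on chromosome 3 at 79259893 to 79371601 of mm9, stood at 20.8 FPKM in refed KR and 22.1 in refed WT, against 45.8 in fasted KR and 57.5 in fasted WT islets. Its fall of 1.22 ± 0.07 (limma adjusted p = 8.46e-06) was the largest of the 38 members and the 122nd lowest value of 11953 genes. Its partner gene Fnip1 had 28.9 and 30.0 FPKM in refed KR and WT islets, against 33.3 and 35.5 in fasted KR and WT islets, a fall of 0.22 ± 0.06 (limma adjusted p = 0.018). The ratio of Fnip2 to Fnip1 was 0.719 in refed KR and 0.737 in refed WT, against 1.38 in fasted KR and 1.62 in fasted WT islets. Flcn stood at 39.002 FPKM in refed KR and 35.8 in refed WT, against 59.9 in fasted KR and 63.1 in fasted WT islets, a fall of 0.70 ± 0.07 (limma adjusted p = 6.91e-05).

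Tfe3 was the more abundant of the 2 factors in every library, by 5.88 times in refed KR, 7.10 in refed WT, 4.58 in fasted KR and 5.21 in fasted WT islets. It stood at 12.7 FPKM in refed KR and 13.7 in refed WT, against 16.9 in fasted KR and 16.9 in fasted WT islets, and fell by 0.34 ± 0.07 (limma adjusted p = 0.00413). Tfeb had 2.16 FPKM in refed KR and 1.93 in refed WT, against 3.69 in fasted KR and 3.24 in fasted WT islets, and fell by 0.55 ± 0.11 (limma adjusted p = 0.00314). It rests on few fragments, 46 in the thinnest library as implied by the deposited bounds. Of 16 further MiT family factors and lysosomal genes known as their targets, 14 were tested, 7 fell, 2 rose and 5 did not pass, at a median of -0.17. Mcoln1, a lysosomal calcium channel gene, fell by 1.26, Gpnmb, a lysosomal glycoprotein gene, by 1.11 and Sqstm1, an autophagy receptor gene, by 0.63.

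**Figure D2:**
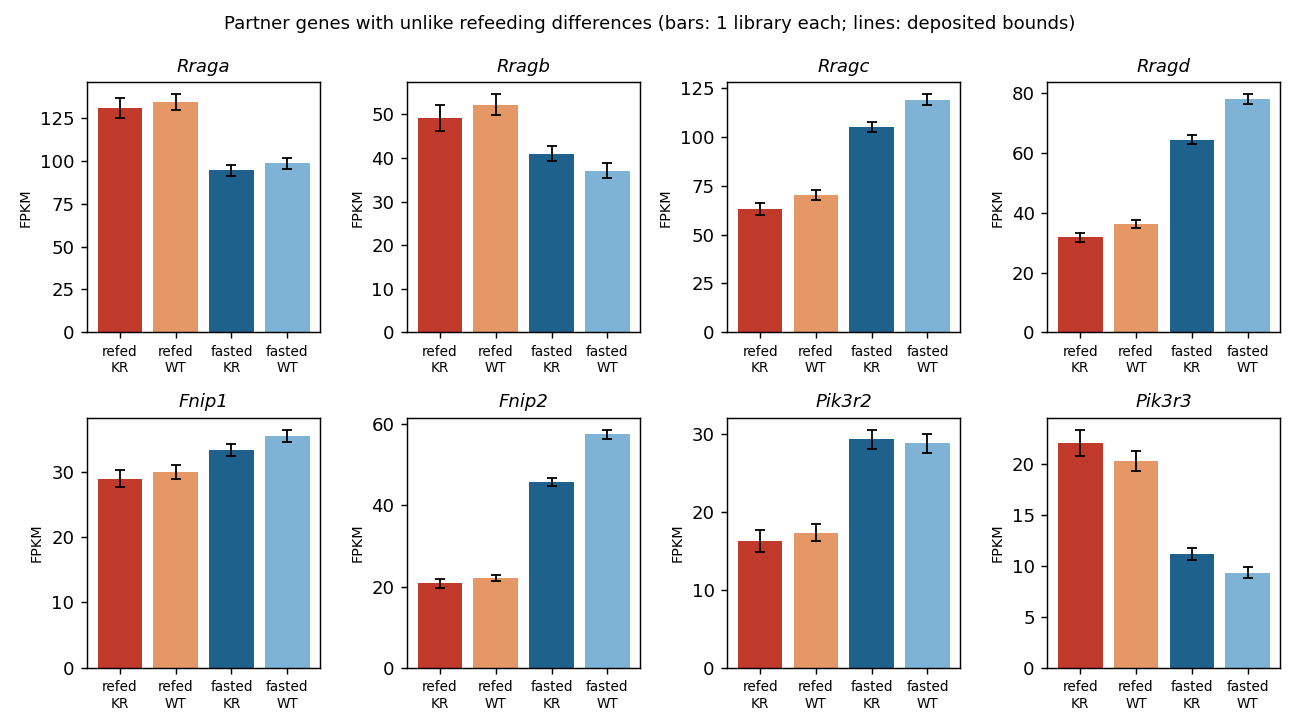
FPKM of partner genes in the 4 libraries, with refed KR, refed WT, fasted KR and fasted WT from left to right; bars are single libraries and lines the deposited bounds. Rraga, Rragb and Pik3r3 are higher in both refed libraries, Rragc, Rragd, Fnip2 and Pik3r2 lower, and Fnip1 differs less.

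Of the 6 AMPK subunit genes 2 rose, 3 fell and 1 did not pass, and the isoforms of the alpha and of the gamma subunit moved in opposite directions. Prkaa1, the catalytic alpha 1 gene, stood at 50.9 FPKM in refed KR and 50.02 in refed WT, against 36.3 in fasted KR and 33.5 in fasted WT islets, a rise of 0.52 ± 0.06 (limma adjusted p = 0.000199). Prkaa2, the alpha 2 gene, stood at 2.44 FPKM in refed KR and 2.87 in refed WT, against 3.37 in fasted KR and 4.02 in fasted WT islets, and fell by 0.36 ± 0.11 (limma adjusted p = 0.0189). Neither gene overlapped between feeding states. Prkaa1 made up 95.4% of the summed alpha FPKM in refed KR and 94.6% in refed WT, against 91.5% in fasted KR and 89.3% in fasted WT islets. The gamma subunits bind AMP and ATP. Prkag1 stood at 51.9 FPKM in refed KR and 56.1 in refed WT, against 46.2 in fasted KR and 45.7 in fasted WT islets, a rise of 0.23 ± 0.06 (limma adjusted p = 0.0146). Prkag2 stood at 19.1 FPKM in refed KR and 18.5 in refed WT, against 22.2 in fasted KR and 21.9 in fasted WT islets, a fall of 0.22 ± 0.07 (limma adjusted p = 0.0208). The genes thus moved in opposite directions, though the deposited bounds of Prkag1 overlapped in the KR pair, with Prkag1 at 73.0% of their sum in refed KR and 75.2% in refed WT, against 67.5% in fasted KR and 67.6% in fasted WT islets.

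Of the scaffold beta subunits, Prkab1 had 18.9 FPKM in refed KR and 17.3 in refed WT, against 21.5 in fasted KR and 24.7 in fasted WT islets, and fell by 0.33 ± 0.09 (limma adjusted p = 0.0104). Its difference was the smaller one in KR, where the deposited bounds overlapped. Prkab2 had 6.55 FPKM in refed KR and 5.68 in refed WT, against 6.41 in fasted KR and 6.91 in fasted WT islets. Its refed WT library was the low one, and the change of -0.11 ± 0.10 did not pass. Prkab1 made up 74.3% of the summed beta FPKM in refed KR and 75.3% in refed WT, against 77.0% in fasted KR and 78.2% in fasted WT islets. The kinases that activate AMPK did not pass either. Stk11, which encodes LKB1, stood at 58.3 FPKM in refed KR and 60.1 in refed WT, against 67.0 in fasted KR and 63.3 in fasted WT islets, a change of -0.14 ± 0.06 (limma adjusted p = 0.0887). Camkk2, a calcium-dependent kinase gene, had 7.07 FPKM in refed KR and 5.72 in refed WT, against 7.503 in fasted KR and 6.63 in fasted WT islets. Its feeding states overlapped, and the change was -0.13 ± 0.09.

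Of the 6 kinase genes downstream of PI3K, mTOR and ERK, 2 rose, 1 fell and 3 did not pass. Pdpk1, which encodes the activating kinase PDK1, had a change of -0.06 ± 0.07, and the S6 kinase genes Rps6kb1 and Rps6kb2 of 0.08 ± 0.08 and -0.09 ± 0.07, none past the test. Pdpk1 stood between 21.8 and 23.8 FPKM over the 4 libraries, Rps6kb1 between 10.6 and 11.9, and Rps6kb2 between 12.6 and 14.3. Sgk3, a PI3K-dependent kinase gene, stood at 8.55 FPKM in refed KR and 9.58 in refed WT, against 6.40 in fasted KR and 6.06 in fasted WT islets, a rise of 0.48 ± 0.09 (limma adjusted p = 0.00203) without overlap. The RSK kinases act downstream of ERK. Rps6ka3 stood at 22.5 FPKM in both refed libraries, against 19.5 in both fasted ones, and rose by 0.19 ± 0.07 (limma adjusted p = 0.0339), with overlapping bounds in the KR pair. Rps6ka1 had 1.66 FPKM in refed KR and 1.99 in refed WT, against 2.95 in fasted KR and 2.67 in fasted WT islets, and fell by 0.43 ± 0.13 (limma adjusted p = 0.0185). It rests on 53 to 228 implied fragments, and the deposited bounds of its WT pair overlapped. Prkag1 and Rps6ka3 lost their calls without the variance trend.

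In the PI3K arm 5 of the 6 tested members fell and Pik3r3 rose. Pik3r3, a regulatory subunit gene on chromosome 4 at 115894519 to 115975661 of mm9, stood at 22.0 FPKM in refed KR and 20.3 in refed WT, against 11.2 in fasted KR and 9.29 in fasted WT islets. Its rise of 0.98 ± 0.07 (limma adjusted p = 2.17e-05) was the 84th highest value of 11953 genes. Of its 50-base transcript windows, 23.2% also occur in transcripts of Gm49337. Pik3r2, which encodes the regulatory subunit p85 beta, stood at 16.3 FPKM in refed KR and 17.4 in refed WT, against 29.4 in fasted KR and 28.9 in fasted WT islets, a fall of 0.76 ± 0.07 (limma adjusted p = 5.12e-05). The ratio of Pik3r3 to Pik3r2 was 1.35 in refed KR and 1.17 in refed WT, against 0.380 in fasted KR and 0.322 in fasted WT islets, so the order of these regulatory subunits was reversed between feeding states.

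Both catalytic subunit genes fell. Pik3ca stood at 9.85 FPKM in refed KR and 9.82 in refed WT, against 11.4 in fasted KR and 11.5 in fasted WT islets, a change of -0.20 ± 0.07 (limma adjusted p = 0.0439). Pik3cb stood at 2.23 FPKM in refed KR and 2.62 in refed WT, against 3.25 in fasted KR and 3.36 in fasted WT islets, a change of -0.33 ± 0.11 (limma adjusted p = 0.0321). Pik3ca lost its call with either rescaling of the libraries and without the variance trend. Grb10, an adaptor that restrains the insulin receptor, lies on chromosome 11 at 11830502 to 11937423 of mm9. It stood at 12.1 FPKM in refed KR and 11.9 in refed WT, against 24.2 in fasted KR and 27.1 in fasted WT islets, a fall of 1.03 ± 0.07 (limma adjusted p = 1.92e-05) without overlap. Inppl1, which encodes the phosphoinositide phosphatase SHIP2, stood at 14.9 FPKM in refed KR and 14.7 in refed WT, against 17.8 in fasted KR and 18.3 in fasted WT islets, and fell by 0.27 ± 0.07 (limma adjusted p = 0.0108).

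**Figure D3:**
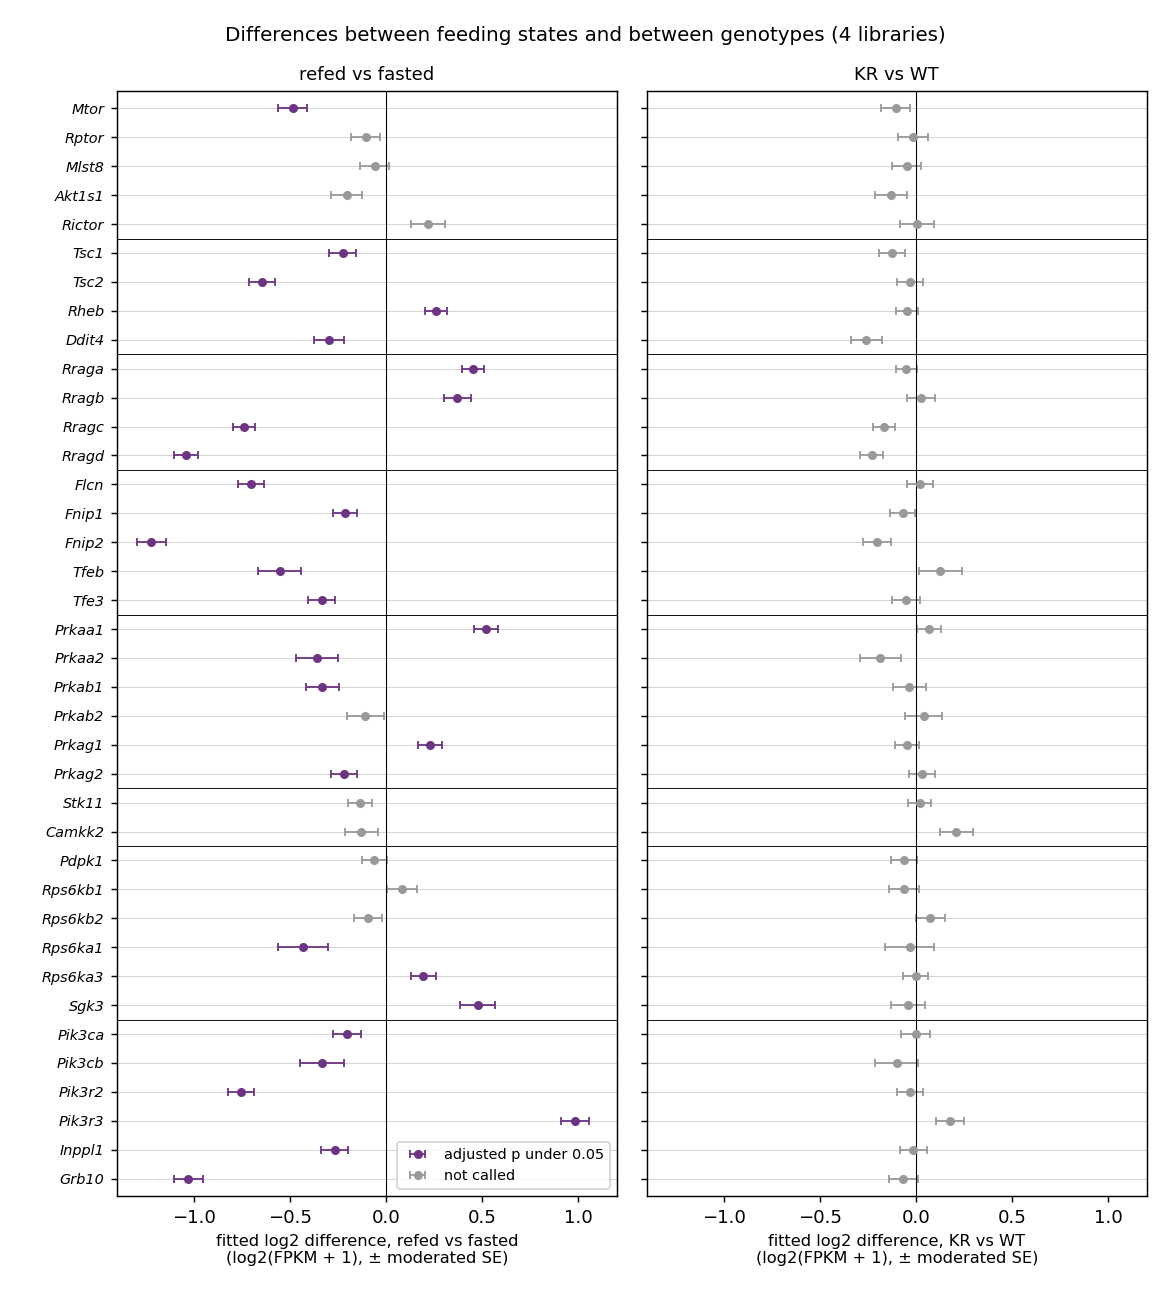
Fitted log2 differences of the 38 tested members between refed and fasted (left) and KR and WT (right) libraries, on log2(FPKM + 1), with moderated standard errors from the 4 libraries. Purple points have an adjusted p under 0.05: 28 on the left, from -1.22 for Fnip2 to 0.98 for Pik3r3, and 0 on the right.

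Against 2-fold as a size, 1 member in the KR pair was at least 2-fold apart, Fnip2, or 2.63% of 38 against 2.33% of all genes. In the WT pair there were 4, Fnip2, Rragd, Grb10 and Pik3r3, or 10.5% against 3.51%. With a pseudocount of 0.1 the KR count was 2, with Rragd, and with a pseudocount of 5 the counts were 0 in KR and 2 in WT. The deposited bounds, which cover counting error only, lay apart between feeding states for 27 members in KR, or 71.1% against 52.1% of all genes, and for 28 in WT, or 73.7% against 61.1%. They lay apart and lower in refed islets in both genotypes for 17 members, or 44.7% against 24.7% of all genes. They lay apart and higher in both for 6, or 15.8% against 20.8%.

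The refeeding ratios of KR and WT islets were alike in direction for 38 of the 39 members, or 97.4%, against 85.5% of all genes. The exception was Prkab2, at 0.03 in KR and -0.24 in WT. The difference between the log2 ratios of the genotypes had a median size of 0.105 over the members and 0.113 over all genes. The largest among the members was that of Prkab1, at 0.32, with ratios of -0.17 in KR and -0.49 in WT, followed by Akt1s1, at -0.36 in KR and -0.05 in WT. With 1 library per group these differences between genotypes have no test.

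**Figure D4:**
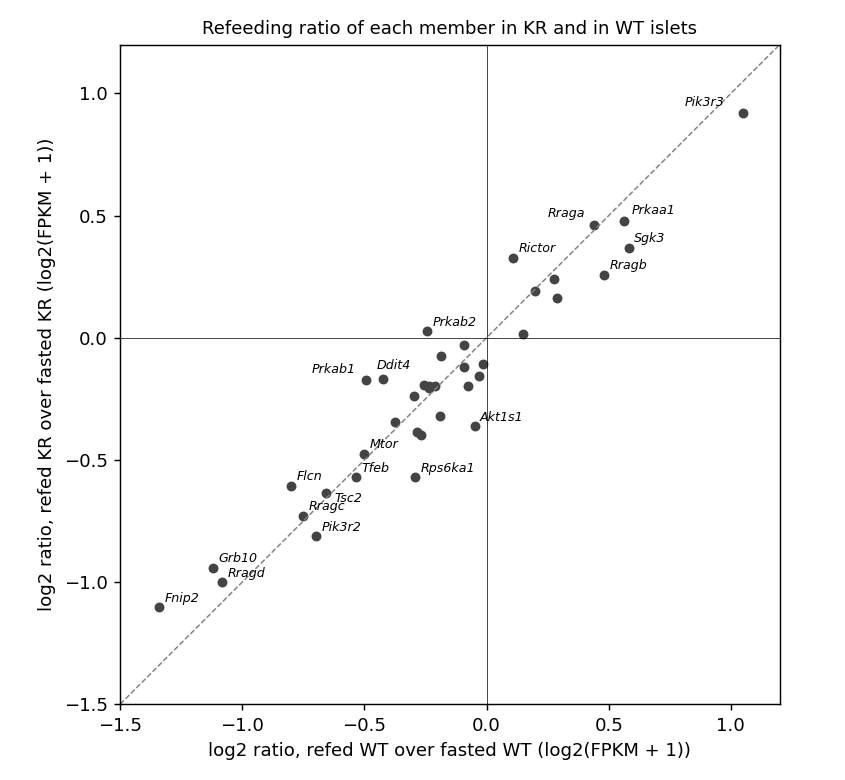
Log2 refeeding ratio of each of the 39 members in KR islets (vertical axis) and WT islets (horizontal axis), on log2(FPKM + 1), with the dashed line of equal ratios. Fnip2, Grb10 and Rragd lie at the low end of both axes and Pik3r3 at the high end; Prkab1, Akt1s1 and Rps6ka1 lie away from the line.

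Between KR and WT islets none of the 38 members passed the limma test over all genes, where 1.26% of genes passed, 0.602% higher and 0.661% lower in KR. Of the marker lists, 4 of 10 tested endocrine and 5 of 9 tested immune genes were higher in KR and both tested adipocyte genes lower, and their part in the values below was not tested. At an unadjusted p under 0.05 there were 6 members, or 15.8%, against 16.4% of all genes. These were Ddit4, Rragc, Rragd and Fnip2, lower in KR, and Camkk2 and Pik3r3, higher in KR. The median log2 difference was -0.04 over the members and -0.04 over all genes. Ddit4 had the lowest value, -0.26 ± 0.08 (limma adjusted p = 0.171), with log2 ratios of -0.13 in the refed and -0.38 in the fasted pair. Rragd had -0.23 ± 0.06 (limma adjusted p = 0.124), Fnip2 -0.20 ± 0.07, with -0.08 in the refed and -0.32 in the fasted pair, and Rragc -0.17 ± 0.06. Camkk2 had 0.21 ± 0.09 and Pik3r3 0.18 ± 0.07.

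Within the refed pair the deposited bounds of KR and WT lay apart for 4 members, Akt1s1, Rragc, Rragd and Camkk2, or 10.5% against 15.3% of all genes. Within the fasted pair they lay apart for 14, or 36.8% against 22.9%. Of these, Rragb, Prkaa1 and Pik3r3 were higher in KR. The others were lower: Mtor, Tsc1, Ddit4, Rragc, Rragd, Fnip1, Fnip2, Prkaa2, Prkab1, Pdpk1 and Grb10. The fasted libraries were the deeper ones, which makes their bounds narrower than those of the refed pair. Rragc and Rragd were the 2 members whose deposited bounds lay apart in the same direction in both genotype pairs, lower in KR, which is 5.26% of 38 against 4.82% of all genes; for 0 members they lay apart and higher in both, against 1.77%. With limma-voom on the fragments implied by the bounds, 4 members passed, Ddit4, Rragd and Fnip2 lower and Pik3r3 higher in KR, or 10.5% against 6.26% of all genes. By direction, voom called 2.77% of genes higher and 3.49% lower. No member was 2-fold apart between genotypes in either feeding state, where 0.368% of genes were in the refed and 0.243% in the fasted pair.

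Other genes of the pathway, from lists chosen with earlier results of these data known, give the setting of the refeeding changes. The counts of these lists, and of the role groups above, stand against 56.9% of all genes called, 27.7% higher and 29.2% lower, and nothing particular to a list is read from them. All 5 genes of Ragulator, the lysosomal anchor of the Rags, passed, 4 higher and 1 lower in refed islets, led by Hbxip at 0.54, 0910001L09Rik at 0.39 and Lamtor3 at 0.29. Of 11 GATOR and KICSTOR genes, which relay amino acid supply to the Rags, 2 rose, 0 fell and 9 did not pass. These were Sec13, also a coat protein of endoplasmic reticulum vesicles, at 0.89, and Itfg2, at 0.22. Of 7 tested genes for amino acid sensors, 3 rose, 2 fell and 2 did not pass, with the stress-induced leucine sensor gene Sesn2 at -1.45, Sesn1 at 0.73 and Sar1b at 0.66. Sesn2 stood at 26.9 FPKM in refed KR and 26.5 in refed WT, against 74.8 in fasted KR and 75.1 in fasted WT islets. Of 7 tested further partners of the mTOR complexes, 2 rose, Tbc1d7 at 0.56 and the assembly factor gene Tti1 at 0.25, and 5 did not pass.

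Of 10 substrates and effectors of complex 1, 6 fell, 3 rose and 1 did not pass. The translation repressor gene Eif4ebp1 fell by 1.76, Larp1, which binds mRNAs of the translation machinery, by 0.86 and the elongation factor kinase gene Eef2k by 0.76. Of 11 tested partners and substrates of AMPK, 4 fell, 3 rose and 4 did not pass, with Crtc2, a CREB coactivator gene, at -0.89, and the AMPK-related kinase genes Sik1 at -0.85 and Sik3 at -0.44. Prkag3 was listed at 0 in every library. Of 19 tested other PI3K, AKT and SGK genes, 11 fell, 3 rose and 5 did not pass, at a median of -0.45. The receptor gene Igf1r fell by 1.04, the kinase gene Akt2 by 0.88 and the phosphatase gene Inpp4a by 0.85. Pik3r1, a regulatory subunit gene of PI3K, fell by 0.32, while the PI3K genes Pik3c2a and Pik3c3 rose by 0.26 and 0.50. Between genotypes 2 genes of these lists passed, Eif4ebp1 and Gpnmb, both lower in KR. Over all genes 1.26% passed, 0.661% lower in KR, and nothing particular to the lists is read from this count. Eif4ebp1 stood at 33.0 FPKM in refed KR against 41.6 in refed WT, and at 111 in fasted KR against 147 in fasted WT islets, a difference of -0.37 ± 0.06 (limma adjusted p = 0.0278). Gpnmb stood at 5.12 FPKM in refed KR against 9.25 in refed WT, and at 13.3 in fasted KR against 19.5 in fasted WT islets, a difference of -0.63 ± 0.08 (limma adjusted p = 0.0113).

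Some members share sequence with other annotated genes, which leaves their values less certain because the handling of such reads is not given in the sources used here. Over 10% of the 50-base windows of the transcripts also occurred in transcripts of another gene, on either strand, for Prkag1 (28.8%), Pik3r3 (23.2%), Rps6kb2 (19.5%), Inppl1 (17.2%), Mlst8 (16.4%) and Prkag2 (11.5%). Rragd shared 0.19%, Fnip2 0.75% and Rragc 6.75%, and Grb10, Flcn and Pik3r2 shared 0%.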

How the data were processed

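Poly-A RNA was prepared with an Illumina TruSeq kit, per the labels' protocols. The submitters' processing notes name bcl2fastq 1.8.4, TopHat2 2.0.4 and build mm9. The authors deposited FPKM values with bounds and a status, per the file headers; how they were computed is not given in the sources used here. The 4 tables each held 23699 rows, summed by symbol to 23235, of which 189 lacked status OK in some library. The end minus the start equalled the RefSeq length in 560 of 571 microRNA rows, so 1 was added to each deposited start.

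Fragments implied by the bounds, as the squared ratio of FPKM to its standard error, summed to 10515596 in refed KR, 17539816 in refed WT, 25657975 in fasted KR and 25585992 in fasted WT islets; 72.6% to 73.2% of implied values under 100 lay within 0.05 of a whole number. Intervals cover counting error only.

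The additive model (limma 3.58.1, R 4.3.3, mean-variance trend, pseudocount 1, mean of at least 1 FPKM) had 1 residual and 7.58 prior degrees of freedom and was tested on simulated data. It counts any interaction as error. A call needed an adjusted p under 0.05. Pairs of single libraries have no replicate check and no p-value. Alternatives were other pseudocounts, filters, scalings, priors and row choices, and limma-voom. The members and lists were chosen with earlier results of these data known. All members are named. Of each pathway list, the 3 called genes with the largest changes are named per comparison, and Pik3r1, Pik3c2a and Pik3c3 are named besides.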

Additional observations from a re-analysis of the deposited data

How the results depend on the processing

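The refeeding calls rest on the filter and the prior. With no filter on low values limma called 0 genes, 0 members higher and 0 members lower between feeding states, with 6207 genes at an unadjusted p under 0.05, and 0 genes between genotypes, with 1918. In the other 9 alternatives 6 to 9 members rose and 17 to 21 fell (with a mean of at least 5 FPKM 34 were tested). Filters, priors and row choices cannot alter the sign of a member's fitted change. The scalings, limma-voom and, where the KR and WT pairs disagree, the pseudocounts could, and no refeeding change of a member changed sign with them. Between genotypes the count of genes called was 151, against 95 with a pseudocount of 5, 252 with a mean of at least 5 FPKM, 5 without trend, 228 with a robust prior and 748 with limma-voom. limma-voom called 1 member higher and 3 lower in KR, and the other alternatives 0. The members at least 2-fold apart numbered 2 with a pseudocount of 0.1 and 0 with a pseudocount of 5 in the KR refeeding pair, and 2 with a pseudocount of 5 in the WT pair. The genes called higher in KR were 47.7% of those called, 59.8% after rescaling by the median of ratios and 68.4% after rescaling by the upper quartile; the median of all genes moved by less than 0.1. Genotype differences near 0 that did not pass changed sign: after median-of-ratios rescaling, Rptor at 0.0148, Rps6ka3 at 0.029, Pik3ca at 0.0275, Pik3r2 at 0.000214, Inppl1 at 0.0168; after upper-quartile rescaling, Rptor at 0.0421, Mlst8 at 0.00822, Tsc2 at 0.0262, Rheb at 0.0136, Rraga at 0.0122, Tfe3 at 0.00812, Prkab1 at 0.025, Prkag1 at 0.0136, Rps6ka1 at 0.0102, Rps6ka3 at 0.0579, Sgk3 at 0.0153, Pik3ca at 0.0551, Pik3r2 at 0.029, Inppl1 at 0.0453; with limma-voom, Rptor at 0.00559, Rps6ka1 at 0.0515, Rps6ka3 at 0.0179, Pik3ca at 0.0158, Pik3r2 at 0.00534. The cause was not tested. Leaving out 1 of the 4 libraries leaves no residual degree of freedom. No paired analysis was possible because the labels give no replicate numbers and each group holds 1 library; the additive model itself compares feeding states within genotype. The depth of the refed KR library limits the low genes: Inpp4b rested there on 15 implied fragments.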
